A study of Homo sapiens with 8 samples.

Results

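The titles of 3 of the 8 arrays carried a plus sign in their code part (CTR-2+, miR-148b-1+ and miR-148b-2+), and the other 5 did not (CTR-1, CTR-2, CTR-3, miR-148b-1 and miR-148b-3). The arrays were chosen by that sign in the title alone, with no measured value, and the labels do not say what the plus sign or the code number stands for. All 8 arrays held total RNA of MDA-MB-231, a human breast cancer cell line of mesenchymal character, hybridised to a whole-genome Agilent array with 1 dye, Cy3. The plus arrays were 1 array of cells given a negative control (control replicate 3, code 2) and 2 arrays of cells transfected with 75 nM of a miR-148b precursor and used 48 h later (miR-148b replicate 2 of code 1 and replicate 3 of code 2). The arrays without plus were control replicates 1, 2 and 4 (codes 1, 2 and 3) and miR-148b replicates 1 and 4 (codes 1 and 3). The question was which genes and programs differed between plus arrays and arrays without plus once treatment and code 1 against the other codes had been allowed for.

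The clearest named group that differed was the replication-dependent histone genes, whose proteins package newly copied DNA. As background, these genes lie mostly in clusters, are short and lack introns, are transcribed mainly while DNA is copied, and give messages that end in a stem-loop instead of a poly(A) tail. Replacement histones, such as H3.3 and H2A.Z, are made throughout the cell cycle from polyadenylated messages. Per the labels' protocols the RNA was copied to cDNA and then to labelled cRNA; the primer of the first step is not stated in the labels.

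The table gave intensities of 33446 probes, of which 24790 named 1 gene, and 15971 genes were represented by their probe with the highest mean level. Array medians lay between 370 and 404, in the same order as the arrays' counts of empty cells, and all 8 arrays shared the same highest value. Empty cells were more frequent on the plus arrays, at 977 to 1038 per array, against 81 to 865 on the arrays without plus (exact two-sided permutation test, p = 0.0357, the smallest that 56 arrangements allow). Markers of the line were high on both sets of arrays, with VIM at 125060 ± 16350 on plus arrays (SD, n = 3) and 145520 ± 32310 on arrays without plus (SD, n = 5). The epithelial cadherin gene CDH1 read 89.3 and 54.8 and the estrogen receptor gene ESR1 58.8 and 71.2 on the same sets, while EPCAM, an epithelial adhesion gene, was not low at 3118 and 2676. With 3 arrays against 5, precision was limited by the number of arrays, and in RNA from a whole culture fewer cells of a kind and less RNA per cell cannot be told apart.

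Across all genes, 2195 of 15866 tested genes differed with the plus mark in the limma fit at an adjusted p under 0.05, which is 13.8% of them. Of these, 1234 were lower on the plus arrays (7.78% of the genes tested) and 961 were higher (6.06%). The median size of a called difference was 0.77 on the log2 scale, and the median of all genes was 0.05, with 44.6% of genes below 0. Over probes the count was 5551 of 33240 (16.7%), with 3187 lower (9.59%) and 2364 higher (7.11%), and past the 1.5-fold change and 16% rate of false discoveries that the series itself used, it was 6585 (19.8%). Probes without a single gene name were called in 20.9% of cases and 73.7% of those calls were lower, while probes with 1 gene were called in 15.2%, of which 49.7% were lower. Of 14825 genes measured on every array, the plus arrays lay below all others in 1280 (8.63%) and above all others in 1110 (7.49%). The plus mark took 25.3% of the summed squares over the probes with a value on every array, and 23.5% after treatment and code 1.

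These counts rested on 4 residual degrees of freedom. With the code number as a replicate block 265 genes were called, without miR-148b replicate 4, which carries no plus, 217, and without miR-148b replicate 1, which carries no plus either, 3791. Lower calls made up 56.2% of the total, but 74.9% with arrays centred on their median and 72.7% after quantile normalization. They made up 40% without the dimmest 50% of probes and 48% with pseudocount 50. Among called genes above the median level 47.6% were lower, so the balance of direction depended on setting and level.

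**Figure D1:**
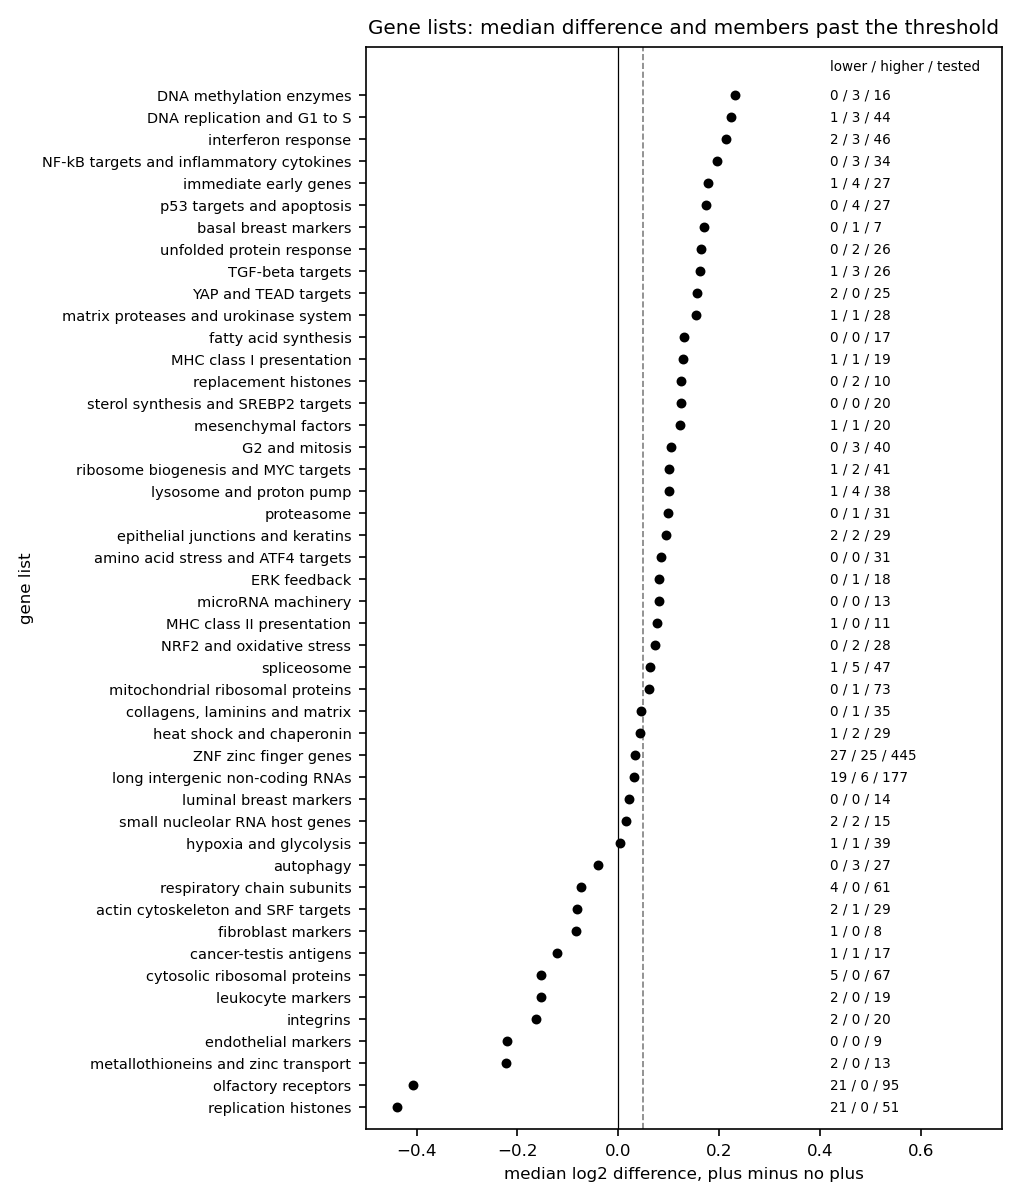
Median log2 difference (plus minus no plus) of each gene list on the horizontal axis, with the dashed line at the median of all genes, 0.05. The counts at the right are members lower, members higher and members tested at an adjusted p under 0.05. Replication histones (21 lower, 0 higher of 51) and olfactory receptors (21 lower, 0 higher of 95) lie farthest to the left.

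Replication histones fell more often than genes at large. Of 57 genes written in the list, 51 were measured and tested, 21 of them fell (41.2%, against 7.78% of all genes) and 0 rose. The median of the list was -0.44, and 45 of the 51 differences were negative. For 22 of the 50 members with a value on every array, all 3 plus arrays lay below all 5 arrays without plus, which was so for 8.63% of all such genes. The summed intensity of those 50 members lay between 269889 and 342773 on the plus arrays, below its range of 361744 to 507344 on the arrays without plus.

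H3C12, an H3 gene, shared the smallest adjusted p among the named falls with H1-4 and the non-coding LINC02381. It read 2323, 2177 and 2482 on the plus arrays (control replicate 3, miR-148b replicates 2 and 3), against 6650, 8549, 8553, 9007 and 10016 on the arrays without plus (control replicates 1, 2 and 4, miR-148b replicates 1 and 4). Every plus array thus lay far below the lowest array without plus, and the log2 difference was -1.95 (SE 0.10, limma adjusted p = 0.0024).

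H4C4, an H4 gene, read 1992, 4044 and 2324 on the plus arrays in the same order, against 9350, 5926, 7717, 14191 and 8560 on the arrays without plus. The groups did not overlap, the highest plus array being miR-148b replicate 2, and the log2 difference was -1.79 (SE 0.13, limma adjusted p = 0.00354). H1-4, a linker histone that binds DNA between nucleosomes, read 1206, 1566 and 1279 on the plus arrays, against 4234, 3880, 3585, 4335 and 3623 without plus. This was again a difference with no overlap, of -1.54 (SE 0.09, limma adjusted p = 0.0024). H3C7 read 1075, 816 and 835 on the plus arrays, against 2086, 2416, 2771, 2868 and 3341 without plus, at -1.62 (SE 0.17, limma adjusted p = 0.00646). H3C12, H4C4, H1-4 and H3C7 stayed past the threshold in each of the 8 fits that left out 1 array and with the code number as a replicate block. A second, dim probe of H3C7 was at -0.08 and did not pass.

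Promoters of H4C4, H1-4 and H3C7, 3 histone genes with large falls, are shown with that of H3-3B, a replacement histone gene that rose, to set beside each other genes that moved in opposite directions. Each runs 5′ to 3′ on the gene's strand from 250 bases before to 50 after the annotated start, from RefSeq on build GRCh38.p14. The windows are chr6:26189063-26189362 (minus strand) for H4C4, chr6:26156079-26156378 (plus strand) for H1-4, chr6:26250586-26250885 (minus strand) for H3C7 and chr17:75779730-75780029 (minus strand) for H3-3B. Capitals mark the TATA box letters TATAAA and the CCAAT box letters CCAAT, or their complements on the other strand.
H4C4: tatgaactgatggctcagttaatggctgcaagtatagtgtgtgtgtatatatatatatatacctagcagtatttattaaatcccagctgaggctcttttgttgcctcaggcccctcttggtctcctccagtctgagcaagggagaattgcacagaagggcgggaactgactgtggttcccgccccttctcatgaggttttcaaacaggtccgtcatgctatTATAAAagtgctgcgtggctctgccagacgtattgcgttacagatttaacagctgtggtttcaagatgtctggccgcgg
H1-4: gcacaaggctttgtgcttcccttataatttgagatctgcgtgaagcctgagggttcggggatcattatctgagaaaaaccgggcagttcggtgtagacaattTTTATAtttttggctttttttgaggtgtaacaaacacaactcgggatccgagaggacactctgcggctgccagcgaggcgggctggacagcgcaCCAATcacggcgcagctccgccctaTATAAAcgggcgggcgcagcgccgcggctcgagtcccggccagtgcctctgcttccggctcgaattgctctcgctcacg
H3C7: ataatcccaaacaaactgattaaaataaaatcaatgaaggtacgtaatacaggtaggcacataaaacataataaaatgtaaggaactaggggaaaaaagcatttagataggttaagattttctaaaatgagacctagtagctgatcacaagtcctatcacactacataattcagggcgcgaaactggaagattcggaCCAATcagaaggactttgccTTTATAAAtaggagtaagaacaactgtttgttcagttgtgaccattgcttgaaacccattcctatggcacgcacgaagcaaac
H3-3B: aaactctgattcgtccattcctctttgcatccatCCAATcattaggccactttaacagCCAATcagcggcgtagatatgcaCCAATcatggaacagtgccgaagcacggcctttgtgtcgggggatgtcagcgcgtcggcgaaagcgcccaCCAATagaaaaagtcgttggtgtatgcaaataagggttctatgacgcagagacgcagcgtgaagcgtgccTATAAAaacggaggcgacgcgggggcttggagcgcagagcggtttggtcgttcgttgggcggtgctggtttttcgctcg

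TATAAA, searched on both strands, was in 32 of the 46 replication histone promoters given (69.6%), in 16 of the 19 promoters of those that fell (84.2%) and in 7.54% of the 12524 promoters of tested genes. CCAAT was in 41 of the 46 (89.1%) and in 15 of the 19 (78.9%), where 36.5% of all promoters held it. Of 10 replacement histone promoters, 4 held TATAAA and 7 held CCAAT. Among all called genes, TATAAA was in 14.3% of the promoters of lower genes and in 5.81% of those of higher genes. These are letter matches, not measured sites, and the letters did not set H3-3B apart, which holds both.

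The other replication histones that fell came from all 5 classes. Of the H4 genes, 6 of 10 fell, with H4C2 at -1.17, H4C13 at -0.82 and H4C3 at -0.62. Of the H3 genes, 5 of 10 fell, with H3C4 at -1.02, H3C10 at -0.87 and H3C6 at -0.52 beside H3C12 and H3C7. The H1 genes were at 2 of 4, the second being H1-3 at -1.02.

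Of the H2A genes, 5 of 11 fell, led by H2AC14 at -1.10 and H2AC21 at -0.85. Of the 16 H2B genes only 3 fell, H2BC11 at -0.55, H2BC3 at -0.47 and H2BC5 at -0.45, although all 16 differences were negative with a median of -0.33. Histone genes of 1 class are near-identical copies, so probes for them may read each other's messages.

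The 6 members with positive differences, none past the threshold, were led by H3C8, at 8615 ± 518 on plus arrays (SD, n = 3) and 6665 ± 831 on arrays without plus (SD, n = 5), a difference of 0.36 (limma adjusted p = 0.0684). H2AC8 was at 0.20 with an SE of 1.63, because control replicate 2 read 8.53 where the other arrays without plus read from 710 to 900 and the plus arrays from 359 to 526. The count of histones that fell was 6 with the code number as a replicate block and 6 without miR-148b replicate 4, 13 without control replicate 4, 11 without either plus miR-148b array and 28 without miR-148b replicate 1. With the biological replicate number as a replicate block 3 histones fell and 1 rose, where 832 of 15249 genes fell, a like share. The median of the list was -0.38 in that fit. Over the 8 fits that left out 1 array, the median of the list stayed between -0.52 and -0.41.

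**Figure D2:**
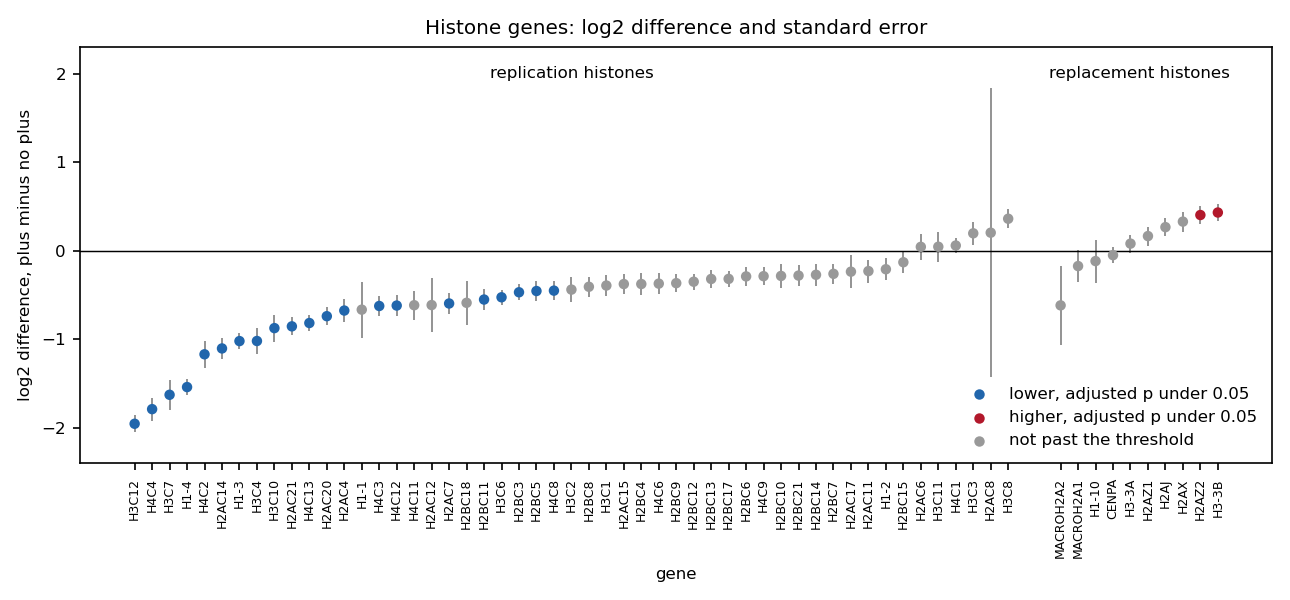
Log2 difference (plus minus no plus) and its standard error for each tested histone gene, ordered within replication histones (left) and replacement histones (right). Blue points are the 21 replication histones past an adjusted p of 0.05 in the lower direction, red points the 2 replacement histones past it in the higher direction, and grey points did not pass. The long bar belongs to H2AC8, whose SE is 1.63.

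Replacement histones, a list added after the values had been seen, held no falls. Of 10 tested, 2 rose (20%, against 6.06% of all genes) and 0 fell, with a list median of 0.12. H3-3B, which encodes the H3.3 protein, read 95763, 113703 and 110195 on the plus arrays, against 71975, 70039, 66258, 96243 and 77387 on the arrays without plus, a difference of 0.43 (SE 0.10, limma adjusted p = 0.0375). Its groups overlapped through miR-148b replicate 1. H2AZ2, an H2A.Z gene, read from 83397 to 85515 on the plus arrays and from 55485 to 71833 without plus, at 0.40 (SE 0.10, limma adjusted p = 0.0472). Neither rise passed with arrays centred on their median, with the code number as a replicate block, or when any single array but miR-148b replicate 1 was left out, and 1 member fell without control replicate 2. SLBP, which binds the stem-loop of replication histone messages, was at 16055 ± 3644 on plus arrays (SD, n = 3) and 14097 ± 1994 without plus (SD, n = 5), a difference of 0.21 that did not pass (limma adjusted p = 0.163).

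Genes of DNA replication, and genes of G2 and mitosis, held few calls. Of 44 tested genes of replication and the step from G1 to S, 3 rose, 1 fell and 33 differences were positive, with a median of 0.22. UNG, which removes uracil from DNA, read 1251, 1387 and 1144 on the plus arrays, against 588, 539, 464, 920 and 478 without plus, at 1.12 (SE 0.18, limma adjusted p = 0.0157). MCM3, a subunit of the replicative helicase, rose by 0.44 and RFC3, a subunit of the clamp loader, by 0.47, while ORC6, a subunit of the origin recognition complex, fell by 0.71. Of 40 genes of G2 and mitosis, 3 rose and 0 fell, with a median of 0.10. They were NUSAP1, a spindle protein (0.81), BIRC5, the survivin gene (0.53), and BUB1, a spindle checkpoint kinase (0.36). These shares, 9.09% and 7.5% of each list in either direction, lay below the 13.8% of all genes. The 7.5% were all rises, where 6.06% of all genes rose.

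Short genes fell more often than long ones. In groups by genomic span, bounded after the values had been seen, 64 of 263 genes under 1 kb fell (24.3%) and 3 rose (1.14%). Over 100 kb, 143 of 2622 fell (5.45%) and 201 rose (7.67%). The median difference was -0.28 under 1 kb, -0.03 from 2 to 5 kb, 0.01 from 10 to 20 kb and 0.12 over 100 kb.

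Without the replication histones, 46 of 219 genes under 1 kb still fell and 3 rose, with a median of -0.22. Among those of them with a level above the median of all genes, 17 of 64 fell and 0 rose. The level of a gene moved with its call as well: 18.5% of genes at or below the median level were called, against 9.27% above it, and the tenth of genes with the lowest but one mean level held 244 falls among 1579.

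**Figure D3:**
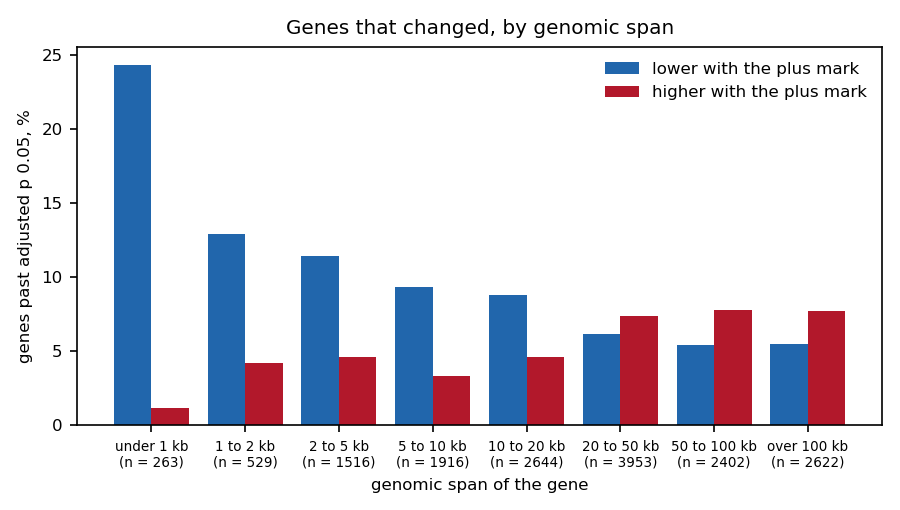
Percent of tested genes past an adjusted p of 0.05 in each group of genomic span, lower (blue) and higher (red) with the plus mark, with the number of genes under each group. The lower share is 24.3% under 1 kb and 5.45% over 100 kb, while the higher share is 1.14% and 7.67% there.

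Pseudogenes, copies of genes that mostly lack introns, fell in 88 of 455 cases (19.3%) and rose in 25 (5.49%), with a median of -0.16, where 7.16% of protein-coding genes fell and 6.13% rose. TPT1P8, a copy of the translationally controlled tumour protein gene, read 984, 927 and 760 on the plus arrays, against 3828, 3541, 4181, 5216 and 4072 without plus. All 3 plus arrays lay below all others, and the difference was -2.23 (SE 0.16, limma adjusted p = 0.00335). TPT1 itself was at -0.10 (limma adjusted p = 0.489).

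Over 190 pseudogenes whose parent gene, by its name, was also tested, 42 fell and 9 rose, with a median of -0.14. Of their parents, 8 fell and 10 rose, with a median of 0.05. The parent fell for 3 of the 42 pseudogenes that fell. Further examples, chosen after their values were seen, were RPL23AP32 at -1.52 beside RPL23A at -0.03, GAPDHP62 at -1.17 beside GAPDH at -0.31, and RPS10P7 at -0.83 beside RPS10 at -0.26, each parent short of the threshold. Probes for such copies may also read the parent's message, so these values belong to the probes.

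Cytosolic ribosomal protein genes had mostly small negative differences. Of 67 tested, 55 were negative, with a median of -0.15, but only 5 fell (7.46%, near the 7.78% of all genes) and 0 rose. RPL7 read 51579, 72856 and 60996 on the plus arrays, against 95512, 82963, 87168, 99083 and 95044 without plus, a difference of -0.62 (SE 0.09, limma adjusted p = 0.014). RPL17 was at -0.60, RPS23 at -0.54, RPL9 at -0.39, and NPM1, a nucleolar protein of ribosome assembly from another list, at -0.40. For 18 of the 67 the plus arrays lay below all others. When either miR-148b replicate 3 or 4 was left out, 0 members fell, as with the code number as a replicate block, and the list's median was 0.01 with the biological replicate number as a replicate block. Of 73 mitochondrial ribosomal protein genes, 1 rose (1.37%), MRPS6 by 0.42, and 0 fell. Respiratory chain subunits, with a list median of -0.07, held 4 falls among 61 (6.56%, below the 7.78% of all genes). These were COX7A2, NDUFA2, NDUFA3 and ATP5PB, from -0.52 to -0.43.

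The 14 named genes with the largest falls, among genes above the median level that differed in the same direction in both matched pairs, also held CRCT1, a gene of the epidermal differentiation complex. It read 469, 555 and 438 on the plus arrays, against 2405, 2050, 2605, 4421 and 2623 without plus, at -2.54 (SE 0.19, limma adjusted p = 0.00354). AFDN-DT, a non-coding transcript divergent from the junction gene AFDN, was at -2.54 (SE 0.17), and its plus arrays, from 431 to 546, lay below the range of 2387 to 4120 without plus. PRSS36, a serine protease gene, was at -1.84, with 3632 to 5000 on plus arrays and 11781 to 20881 without plus. SLC26A1, a sulfate transporter, read 407, 485 and 540 on plus arrays and from 3448 to 4094 on 4 arrays without plus, but 874 on miR-148b replicate 1, and its dim other probes did not pass.

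BCL2, an inhibitor of apoptosis, read 799, 642 and 753 on the plus arrays, against 2722, 2403, 3016, 1419 and 3027 without plus, a difference of -1.71 (SE 0.22, limma adjusted p = 0.01). Its other probe was at -0.10 and did not pass, so this fall belongs to 1 of 2 probes. PFKL, a phosphofructokinase of glycolysis, was at -1.60, with its other probe at -0.28. CRHR2, a receptor for corticotropin-releasing peptides, was at -1.62 and its other probe at -1.75, both past the threshold. The remaining falls were FAM43B (-1.95), CD86, a costimulatory ligand of antigen-presenting cells (-1.70), and INE1, a non-coding gene (-1.63, with a dim other probe at -0.27 that did not pass). Of the 14 falls, 7 stayed past the threshold whichever single array was left out (CRCT1, AFDN-DT, TPT1P8, PRSS36, H3C12, H4C4 and H3C7), and the other 7 lost it without miR-148b replicate 4. With the code number as a replicate block 8 of the 14 passed.

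The 14 named rises lay between 0.92 and 1.23. CYB5B, the cytochrome b5 of the outer mitochondrial membrane, read 6294, 9640 and 6248 on the plus arrays, against 3689, 2493, 2278, 5795 and 2369 without plus, at 1.23 (SE 0.17, limma adjusted p = 0.0106). The splicing factor gene SRSF9 was at 1.01, SNRNP40, a protein of the U5 particle, at 0.92, PTBP2, a splicing repressor, at 0.93, and WTAP, a subunit of the complex that methylates adenosine in messages, at 1.00. The other probes of WTAP, 1 of them about as bright, were at 0.017 and 0.27 and did not pass, so its rise belongs to 1 of 3 probes. In the spliceosome list as a whole, 5 of 47 rose (10.6%, against 6.06% of all genes) and 1 fell, SF3A2 at -1.24, so the list did not move one way. Its median of 0.06 was -0.01 with arrays centred on their median.

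TXNRD1, the cytosolic thioredoxin reductase, read 5571, 2812 and 4170 on the plus arrays, against 1351, 2008, 2023, 2125 and 2096 without plus, at 1.04 (SE 0.21, limma adjusted p = 0.0277). RNF168, a ubiquitin ligase that acts on H2A at DNA breaks, was at 1.13, with its other probes at 0.24 and 0.15, neither past the threshold. CHUK, which encodes the kinase IKK alpha, was at 0.94, SUCLG2, a subunit of succinyl-CoA ligase, at 1.00, and FAR1, a fatty acyl-CoA reductase, at 0.96, with 1 of its 3 other probes past the threshold as well. The others were KLHL4 (1.06, with its other probe of similar level at 0.035 and not past the threshold), the pseudogene HNRNPKP3 (0.97), the read-through gene TMED7-TICAM2 (0.97) and the membrane fusion protein gene SNAP23 (0.95).

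All 14 rises lost the threshold without miR-148b replicate 4, where the limma adjusted p of CYB5B was 0.0655, and 1 of the 14, HNRNPKP3, passed with the code number as a replicate block. In RNF168, SRSF9 and SNRNP40 the groups overlapped through miR-148b replicate 1, which lay highest of the arrays without plus in each. Over all called genes with further probes, 54.5% of the other probes of lower genes and 76.1% of those of higher genes had the same sign, against 60.2% for all genes.

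**Figure D4:**
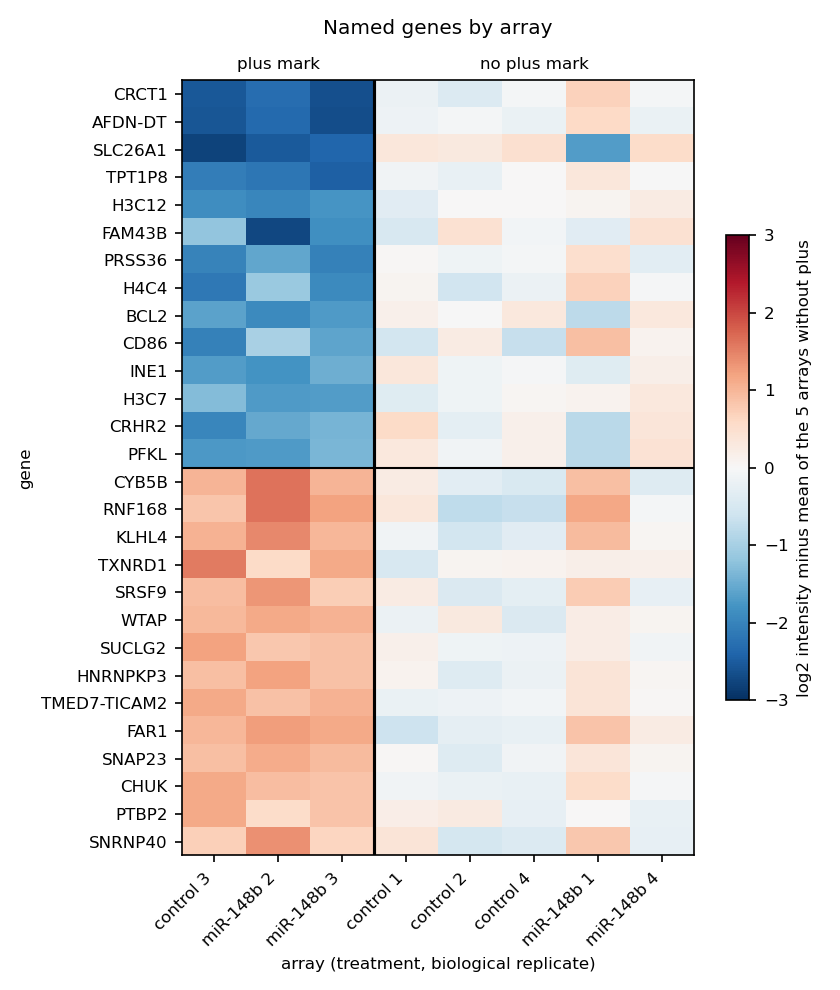
Log2 intensity of the 28 named genes on each array, minus the gene's mean over the 5 arrays without plus (colour scale from -3 to 3), with the 3 plus arrays at the left and the 5 arrays without plus at the right, and the 14 falls above the 14 rises. The falls are darker than the rises, and miR-148b replicate 1 differs from the other arrays without plus in SLC26A1, CD86, CYB5B and RNF168.

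Stress and signalling lists held few calls each. Of 27 tested p53 targets and apoptosis genes, 4 rose and 0 fell, with a median of 0.17. The 14.8% called was near the 13.8% of all genes called in either direction, where 6.06% rose. APAF1, the scaffold of the apoptosome, read 474, 305 and 487 on the plus arrays, against 217, 137, 143, 170 and 225 without plus, at 1.21 (SE 0.26, limma adjusted p = 0.0346). SESN1 rose by 0.65, the pore-forming BAX by 0.47 and MDM2, the ligase that degrades p53, by 0.44. The rise of APAF1 was lost without any one of 5 arrays, among them control replicates 2 and 4, with its adjusted p reaching 0.171. The others were less stable: of the 8 fits that left out 1 array, MDM2 passed in 2, SESN1 in 1 and BAX in 0.

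Of 27 immediate early genes, 4 rose and 1 fell (18.5% called, against 13.8% of all genes). JUN, a subunit of the AP-1 factor, read 5205, 6115 and 7360 on the plus arrays, against 9202, 11197, 10534, 9980 and 13167 without plus, at -0.90 (SE 0.11, limma adjusted p = 0.00766). Its partner gene FOS differed the other way, at 0.48, as did IER5 (0.56) and KLF4 (0.42). The mean of its probes put IER5 at -0.34, without passing. Of 34 NF-kB targets and cytokines, 28 differences were positive, with a median of 0.20, and 3 genes rose: the inhibitor gene NFKBIA at 0.50, NFKBIZ at 0.92 and the dim IL1A at 1.17. The 8.82% called was below the 13.8% of all genes called in either direction, but above the 6.06% that rose. NFKBIA read 43247, 39647 and 37248 on the plus arrays, against 27696, 27664, 27466.5, 29603 and 29042 without plus, groups that did not overlap.

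TGFBR1, a receptor of TGF-beta, read 310, 266 and 287 on the plus arrays, against 105, 142, 130, 139 and 155 without plus, at 1.05 (SE 0.12, limma adjusted p = 0.00711). The TGF-beta list also held rises of THBS1 (0.50) and SKIL (0.49) and a fall of LTBP2 (-0.57) among 26 genes, 15.4% called against 13.8% of all genes. Of 25 YAP and TEAD targets, 2 fell (8% called) and 0 rose, although 17 differences were positive. Both are tied to restraint of YAP: PTPN14, a phosphatase that binds YAP, and LATS2, a kinase that phosphorylates it. PTPN14 read 575, 456 and 764 on the plus arrays, against 1184, 1494, 1510, 1372 and 2027 without plus, at -1.48 (SE 0.10, limma adjusted p = 0.00335), and LATS2 was at -0.77. PTPN14 stayed past the threshold whichever single array was left out and with the code number as a replicate block.

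Genes of the lysosome and its proton pump rose in 4 of 38 cases and fell in 1 (13.2% called, near the 13.8% of all genes), with CTSS at 1.12, the pump subunit ATP6V1B2 at 0.74, the membrane protein LAMP1 at 0.48 and the sulfatase ARSA at -1.08. The unfolded protein response held 2 rises among 26 (7.69%), EDEM1 (0.76) and DNAJB9 (0.39), where 6.06% of all genes rose. Autophagy held 3 among 27 (11.1%), ATG10, WIPI1 and UVRAG (0.46 to 0.62). Enzymes of DNA methylation and related proteins held 3 rises among 16 (18.8%), DNMT3A (0.68), TDG (0.46) and HELLS (0.41), with a median of 0.23. Of 46 interferon response genes, 3 rose, among them CXCL11 (0.95) and EPSTI1 (0.66), and 2 fell, XAF1 (-0.93) and OAS2 (-0.71), which makes 10.9% called, below the share of all genes. With the biological replicate number as a replicate block CXCL11 was at -3.87 (limma adjusted p = 0.0081) and CTSS at -1.25 (limma adjusted p = 0.0472), calls in the opposite direction, and EPSTI1 was at -0.64 without passing.

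Of 20 integrins, 2 fell (10%, where 7.78% of all genes fell) and 0 rose, ITGB7 at -0.85 and ITGA2 at -0.78. With the same block ITGA2, BUB1, CAV2, DNAJB9, IL1A, MRPS6, SKIL and THBS1 also changed sign, none of them past the threshold there. Metallothioneins and zinc transport held 2 falls among 13 (15.4%, against 7.78% of all genes), the metal-responsive factor MTF1 (-0.47) and MT1X (-0.36). No member passed the threshold in the lists of sterol synthesis (20 tested), fatty acid synthesis (17), amino acid stress (31) and microRNA machinery (13), where DROSHA, the nuclear microRNA processing enzyme, was at 0.39 (limma adjusted p = 0.0501). Of the 46 lists, 12 held only rises, 10 only falls, 18 both and 6 neither, most of them with 1 to 5 members called. With arrays centred on their median, the list medians of spliceosome, mitochondrial ribosomal protein, heat shock, oxidative stress and hypoxia genes changed sign. So did those of luminal, zinc finger, matrix, non-coding RNA and small nucleolar RNA host genes. The 3 plus arrays had the highest medians, so centring lowered them most, and the median of all genes was -0.03 in that fit. Of the 109 list members that the naming rule took and that passed the threshold, 99 lost it without miR-148b replicate 4. The 10 that kept it whichever single array was left out included the 4 histones above, PTPN14 and CD79A. The rest were the zinc finger gene ZNF775 (-1.16) and the non-coding LINC01949 (-1.49), LINC02381 (-1.90) and LINC00334 (-2.69). Members such as CTSS, KLF4, RPL9, THBS1 and UVRAG passed in 0 of the 8 fits that left out 1 array.

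Olfactory receptors, receptors of the nose that are dim here, fell in 21 of 95 cases (22.1%, against 7.78% of all genes) and rose in 0, with a median of -0.41. In groups 2 and 3 of 10 equal groups of all genes by mean level, counted from the dimmest, 15.5% and 14.5% fell, and without the dimmest 50% of probes 3 olfactory receptors fell. In the control pair of code 2 their median was -0.09, and in the miR-148b pair of code 1 it was -0.81. OR7C2 was at -1.59 and OR7A17 at -1.48. The count was 1 with the code number as a replicate block, 1 without miR-148b replicate 4, 8 without miR-148b replicate 2, 9 without miR-148b replicate 3, 12 without control replicate 3 and 14 without control replicate 4. Their summed intensity was 8037 to 9507 on the plus arrays and 11415 to 13443 on the arrays without plus.

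Of 19 leukocyte markers, 2 fell and 0 rose, with a list median of -0.15. The 10.5% called was below the 13.8% of all genes called in either direction, but above the 7.78% that fell. CD79A, a B cell receptor chain, read 901, 624 and 777 on the plus arrays, against 1639, 1974, 2068, 1140 and 2071 without plus, at -1.18 (SE 0.13, limma adjusted p = 0.00711), and CD4 was at -0.92. The sum of the leukocyte markers was 6262 to 10482 on the plus arrays and 8826 to 16391 without plus, ranges that overlapped, while the pan-leukocyte gene PTPRC was near the lowest readings at 13.8 and 11.2. Fibroblast markers held 1 fall among 8 (12.5%), DPT at -0.85, with sums of 2098 to 3940 and 2444 to 5424 and DCN at 12.8 and 16.1. Endothelial markers held 0 calls among 9, with sums of 5489 to 7352 and 5464 to 7505. Luminal breast markers held 0 among 14, and basal breast markers 1 among 7 (14.3%), the caveolin gene CAV2 at 0.45. The part of other cells in these results was not tested, and neither was that of the dim level of these lists.

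Both treatments held a pair of arrays of the same code with and without plus, CTR-2+ against CTR-2 and miR-148b-1+ against miR-148b-1. Over 14825 genes with a value on every array, the differences in these pairs had the same sign for 60.1% of genes and a correlation of 0.301, a description across genes of 2 pairs that share no array. The median of all genes was 0.03 in the control pair and 0.05 in the miR-148b pair. Replication histones had a median of -0.27 in the control pair, with 41 of 50 negative, and of -0.54 in the miR-148b pair, with 44 of 50 negative. H3C12 was at -1.88 and -2.05, H1-4 at -1.69 and -1.47, and H3C7 at -1.17 and -1.81 in these pairs. As named falls, H3C12 and H3C7 had to share a sign in both pairs, but so did all 740 called genes above the median level. The arrays of the pairs were part of the fit that made the calls, so that agreement was not independent of it. Cytosolic ribosomal proteins had medians of -0.10 and -0.16, with 41 and 54 of 67 negative.

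**Figure D5:**
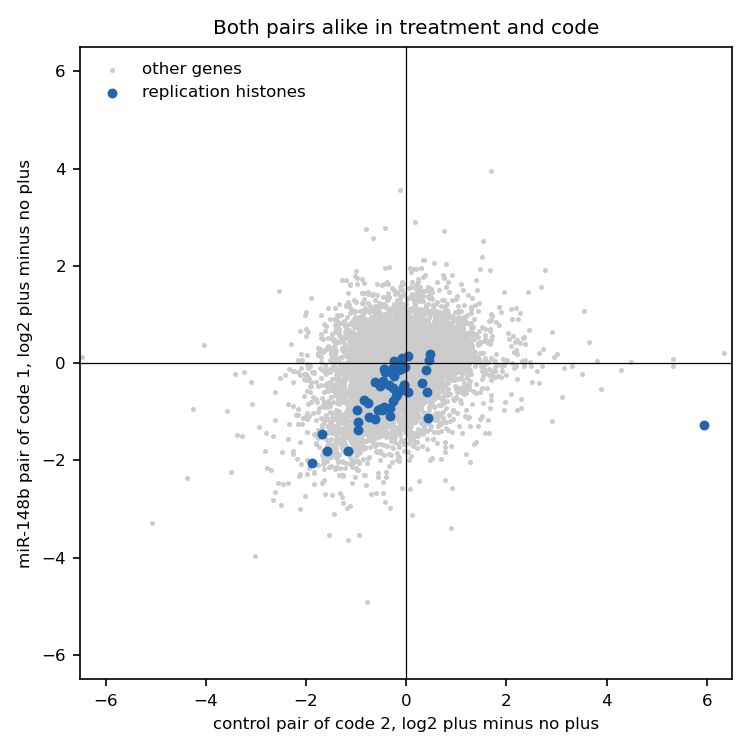
Log2 difference (plus minus no plus) in the control pair of code 2 (horizontal) and in the miR-148b pair of code 1 (vertical) for genes with a value on every array, 8 of the 14825 lying outside the axes. Replication histones (blue) lie mostly at the lower left, with H2AC8 alone at the far right.

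A term for plus by code 1 was tested over all arrays. It compares the plus difference in code 1 with that in the other codes together, so it does not test the matched pairs alone. In limma 0 of 32174 probes and 0 of 15424 genes passed, with 1305 probes (4.06%) and 543 genes at an unadjusted p under 0.05 and a smallest adjusted p of 0.588 for probes. A term for plus by treatment passed 1 probe, which has no gene name and read high on 1 array, and 0 genes, with 3855 probes and 1900 genes at the unadjusted level. Neither term leaves more than 3 degrees of freedom, and a term that misses the threshold does not show that the plus differences were alike.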

How the data were processed

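The authors deposited probe intensity values on a linear scale, 1 table of 33446 probes by 8 arrays, with 0 columns left out. Per the labels, the image software was Agilent Feature Extraction 10.5.1.1. How background, normalization and filters were handled is not stated there. The log2 of each value was used, with pseudocount 0 and without renormalizing, and empty cells (2864 probes, at most 3 arrays each) stayed empty. Where the remaining arrays could not separate all terms, no difference was taken. The table carries no detection flag, so differences of dim probes are less certain. Genes were named through GEO's platform annotation, 0 symbols needed an update from RefSeq, 27 probes named several genes and 8629 none.

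Each probe was fitted in R 4.3.3 by limma 3.58.1 (two-sided, moderated by eBayes) with terms for plus mark, treatment and code 1. A gene took its brightest probe by mean. P-values were adjusted by Benjamini-Hochberg over every probe or gene tested, and 0.05 was the threshold. The test was tried on simulated data. The arrays are called biological replicates in the labels. Correlations of deviations between the control and the miR-148b array of each number were 0.61, -0.50, 0.59 and 0.66 for replicates 1 to 4. They were thus positive for numbers 1, 3 and 4. Number 2, with the negative value, joins CTR-2 and miR-148b-1+, which have unlike codes and plus marks. The main fit did not pair arrays by number. The groups compared and the 46 gene lists were chosen with earlier results of these data known, and 1 further list, the replacement histones, after the values. Named genes were the 14 largest rises and 14 largest falls past 0.05 with values on every array, a level above the median and the same sign in both pairs alike in treatment and code (740 genes qualified), and up to 4 called members per list, or else the 2 with the smallest p. Promoter sequences are RefSeq's, on GRCh38.p14. Alternatives were other terms and blocks, leaving out arrays, scalings, filters and probe rules. Figures were drawn with matplotlib 3.10.9.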

Additional observations from a re-analysis of the deposited data

Results flagged for a closer look

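Of the 29 groups of 5 arrays without plus that were examined, 1 for each of the most changed named genes and the count of empty cells, 4 held an array whose gap to its nearest neighbour was a large part of the whole log2 range, where chance gives about 1 in 20. AFDN-DT read 4120 on miR-148b replicate 1, above the other arrays without plus, with a gap of 0.815 of the range. SLC26A1 read 874 on the same array, below the others, with a gap of 0.889. CHUK read 1186 there, above the others, with a gap of 0.760. TXNRD1 read 1351 on control replicate 1, below the others, with a gap of 0.875. Thus 3 of the 4 fell on miR-148b replicate 1. The cause was not tested.

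The plus difference differed between miR-148b and control arrays for 1 probe, A_24_P817128, which has no gene name here (limma adjusted p = 0.00849 for the term plus by treatment). It read 100700 on the plus control array and 107.5 and 102.4 on the plus miR-148b arrays, against 86.7 to 130.2 on the 5 arrays without plus, so the difference rests on 1 value of 1 array.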

How the results depend on the processing

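The precision is limited by 3 plus arrays, by the code numbers, of which only 1 and 2 hold both kinds of array, and by dim probes without a detection flag. Genes changed with the plus mark numbered 265 with the code number as a replicate block, 256 of them called before, 684 for the plus mark alone, 1130 with the code number as a random block, 1336 without the code 1 arrays (an alternative chosen after seeing the data) and 217 to 3791 when 1 array was left out. Where such a fit left a group with 1 array, that array was assumed to vary like the others. Probes numbered 911, 1264 with the biological replicate number as a replicate block, 2432, 3192 and 912 to 8138 in the matching fits. Replication histones that fell numbered 6 with the code block, 3 with the replicate block (1 rose, and of 15249 genes 832 fell, a like share), 11 for the plus mark alone, 13 without the code 1 arrays and 6 to 28 when 1 array was left out. Their median was -0.27 within code 2, -0.54 within code 1 and -0.52 to -0.41 when 1 array was left out. The term for plus by treatment, in place of plus by code 1, called 1 probe. The causes were not tested.

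In the replicate block, which cannot separate code 1, only the arrays of replicate 2 differ in plus mark. The block called 1563 genes and kept 361 of 2115, with 227 of opposite sign. It reversed BUB1 (-0.10), CAV2 (-0.68), CNN3 (-0.31), CTSS (-1.25, past the threshold), CXCL11 (-3.87, past the threshold), DNAJB9 (-0.19), EPSTI1 (-0.64), ESRP1 (-0.034), GSR (-0.18), IL1A (-1.25), ITGA2 (1.00), MRPS6 (-0.18), SKIL (-0.29) and THBS1 (-0.62). The mean of a gene's probes reversed HNRNPM (-0.43), HSP90AA1 (-0.32), IER5 (-0.34), LTBP2 (0.018) and MTF1 (0.19). The 28 most changed named genes kept their sign in every fit. Their shared sign within both pairs was required by the naming rule, on arrays that were part of the main fit. Of the other values of named genes under the alternatives, 1118 lost the threshold, 35 passed it and 1973 were counted as the same. The last number takes in genes past the threshold in neither fit, whatever their sign. It also takes in values within the pairs, without a test, that lay within the gene's SE of the main fit. Another 215 values within the pairs lay farther away.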
